A study of Danio rerio with 5 samples.

Results

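The genes described here are 200 genes whose reads were found almost entirely in 2 of 5 whole-kidney libraries of adult zebrafish (Danio rerio), the libraries of wild type 2 and runx1 null 6. They were picked from 32520 Ensembl gene IDs by the measured levels themselves. The level of a gene was taken as its normalised read count (CPM), its counts scaled to the total assigned to genes in the library. For each gene the lower of its levels in wild type 2 and runx1 null 6 was divided by the highest of its levels in wild type 1, wild type 3 and runx1 null 5 plus 0.1 CPM. Genes with that lower level above 5 CPM were ranked by the ratio, and the 200 largest ratios were taken. The zona pellucida genes with symbols starting with zp2 or zp3, and figla, h1m, BTG4, org, cldnd, buc, zar1, gdf9 and bmp15, were left out, which removed 26 genes above 5 CPM and left 10358 genes to rank. The contrast between the 2 libraries and the other 3 therefore chose the genes, and its size is given as a description without a test.

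Dissected kidneys of strain EK fish aged about 2.5 months were profiled by bulk RNA sequencing. Wild-type fish gave 3 libraries, with the numbers 1, 2 and 3. The runx1-/- group held 2 libraries, numbered 5 and 6, from siblings carrying the del8 allele (hg96) of runx1, a transcription factor gene of blood stem cell formation. Each library was a pool of 3 kidneys, and the same RNA can come from blood, nephron and any neighbouring tissue taken with the organ. In such bulk samples fewer cells of a type and less RNA per cell cannot be told apart. Nothing in the labels says whether pools came from fish of different sex or from separate clutches, so a p-value measures the spread between these pools only.

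The zebrafish ovary lies beside the kidney and holds oocytes at many stages of growth. An oocyte transcribes and stores large amounts of maternal messenger RNA, ribosomal components and proteins, because the early embryo develops before its own genome is switched on. Stored messages are kept silent by RNA-binding proteins and are read when the oocyte resumes meiosis or is activated. Germ plasm, which marks the future germ cells of the embryo, is also laid down in the oocyte, and the egg coat is built from zona pellucida domain proteins.

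Depth was similar across the libraries, at 31369758, 30174956 and 27631376 gene counts for wild type 1, 2 and 3 and 30354646 and 33752278 for the null pools 5 and 6. A count of 3 corresponded to 0.0889 to 0.109 CPM, depending on the library. RUNX1 (ENSDARG00000087646), the targeted gene, was read at 4.43, 2.98 and 3.15 CPM in wild type and at 6.06 and 1.66 CPM in the null pools 5 and 6. These levels overlapped, and a count over the whole gene does not show whether the del8 allele is present. Wild type 2 and runx1 null 6 stood apart from the other libraries across the 2 genotypes, which is how the genes were chosen. The label of ovary-bearing pools was set beside the oocyte genes that the rule leaves out, which were named with earlier results of these data known and are no independent check. All 27 of their IDs, without a filter on level, summed to 3193 CPM in wild type 2 and 21301 CPM in runx1 null 6. They summed to 17.4, 14.7 and 15.5 CPM in wild type 1, wild type 3 and runx1 null 5. Each of the 27 was at least 4-fold higher in both of the former libraries than in the latter 3, a split shown by 3.12% of IDs above 1 CPM in some library. Genes of the somatic cells of the ovarian follicle were low, and 0 of 18 IDs showed that split. At a share of 3.12% nothing is read from this count. Their summed level over 18 IDs was 18.4 CPM in wild type 2 and 35.3 CPM in runx1 null 6, against 23.2, 10.4 and 22.7 CPM in wild type 1, wild type 3 and runx1 null 5. Of the 13 follicle IDs above 1 CPM in some library, 6 were highest in runx1 null 6, and 4 of these are given first. hsd17b1, an enzyme of estrogen synthesis, stood at 8.65 CPM in runx1 null 6 and at or under 0.265 CPM in the other 4 libraries. CYP19A1, the aromatase, stood at 2.19 CPM in runx1 null 6 and at or under 0.298 CPM in the others. FOXL2 (ENSDARG00000068417) at 1.99 CPM and FSHR, the receptor for follicle-stimulating hormone, at 1.04 CPM were also highest there, with 0.166 and 0 CPM in wild type 2. In wild type 2 these 4 follicle genes had 8, 9, 5 and 0 counts. That is too few to set their levels there against those of the oocyte genes. The choice of the 4 was made with their values known. The other 2 of the 6, gsdf and inha, stood at 5.48 and 1.99 CPM in runx1 null 6. They stood at 4.02 and 0.861 CPM in wild type 1 and at 0.895 and 0.0663 CPM in wild type 2. A further gene of the list, amh, was highest in wild type 1 at 3.76 CPM. RSPO1 and NR5A2, of the same list, were highest in wild type 2, at 8.12 and 5.37 CPM. In runx1 null 6 they stood at 7.44 and 1.81 CPM.

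As a whole, the 200 genes took 2.01% of all assigned counts in wild type 2 (95% Wilson interval 2.004% to 2.014%) and 14.7% in runx1 null 6 (14.68% to 14.71%). They took 0.00505% in wild type 1, 0.00439% in wild type 3 and 0.00594% in runx1 null 5. The intervals cover counting error only. The median gene reached 43.1 CPM in wild type 2 and 272 CPM in runx1 null 6. In wild type 1, wild type 3 and runx1 null 5 the medians were 0.0956, 0.0724 and 0.165 CPM, at or near the level of 3 counts. Of the 200 genes, 5 had 0 counts in all 3 of these libraries, and 186 had at most 30 counts in each of them. The largest count of any of the 200 genes in these 3 libraries was 129, for the tubulin-like gene tuba4l in wild type 1.

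**Figure D1:**
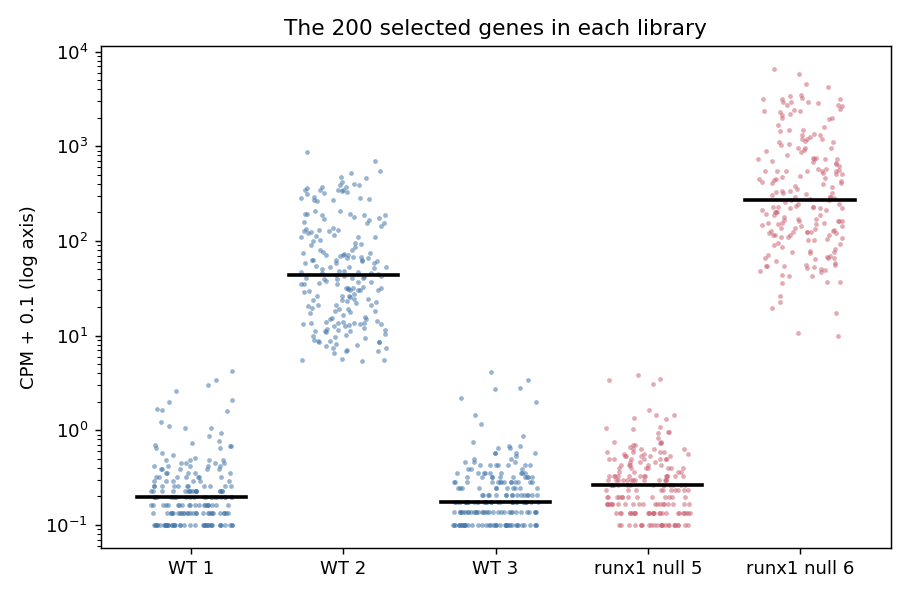
Each point is 1 of the 200 genes in 1 library, on a log axis of CPM + 0.1, with wild type in blue, runx1 null in red and the median as a black bar. The genes of wild type 2 and runx1 null 6 lie above 5 CPM by the rule, while the medians of the other 3 libraries lie at or below 0.165 CPM before 0.1 is added.

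The ratios that ordered the genes ran from 1369 to 24.8, with a median of 115. Just inside the end of the list stood TBPL2 at 26.2, b4galnt2.2 at 25.5 and si:dkey-241l7.3 at 24.8, and just outside it zgc:114123 at 24.6, ccdc106b at 24.4 and DND1 at 24.2. DND1, an RNA-binding protein needed for germ cell survival, was thus left out by a small margin, and the end of the list marks no break in the ratios.

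Most of the strongest genes carry no name that tells a function. Of the 200 genes, 96 have a clone-type name (si, zgc, wu or zmp), 18 have no symbol and 86 have another symbol. Of all 32520 IDs, 29201 have a symbol. The share of clone-type names over all IDs was not counted, so the naming is not read as a trait of the 200 genes. The 10 largest ratios belonged to zgc:171977, zgc:152652, ENSDARG00000095486, wu:fi09b08, zgc:171445, zgc:173856, ENSDARG00000105712, wu:fi42e03, si:dkey-229d11.3 and zgc:171474, none of which has a descriptive name. The first, zgc:171977, stood at 0.128, 362 and 0.0724 CPM in wild type 1, 2 and 3 and at 0.165 and 2901 CPM in the null pools 5 and 6. The gene with the most reads, zgc:152652, stood at 0.383, 867 and 0.543 CPM in wild type 1, 2 and 3 and at 0.428 and 6585 CPM in the null pools 5 and 6. The 2 libraries with high levels lay far above the other 3 in each case, with no overlap. The 10 genes with the most counts held 25.6% of the reads of the 200 genes in wild type 2 and 27.7% in runx1 null 6, and 8 genes were among these 10 in both. CPM does not correct for transcript length, so these are shares of reads and not an order of transcript levels.

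Some of the genes, most of them with clone-type names, lie near each other in the genome. Of the 200 genes, 140 matched exactly 1 protein-coding gene by name in the RefSeq annotation of assembly GRCz12tu, which is not the build of the counts and was used here only for the order of genes. Runs of nearby genes, with at most 5 gene steps from each to the next, held 3 or more of the 200 genes in 9 places and took in 39 genes, 27.9% of those matched. Among the next 200 genes in the ranking, 167 matched and no run of 3 or more was found. One run held 7 genes, zgc:171977, zgc:152652, si:ch211-146l10.7, zgc:171750, zgc:171474, zgc:173856 and si:ch211-146l10.8. Its genes stood between 271 and 867 CPM in wild type 2 and between 1970 and 6585 CPM in runx1 null 6, and their ratios, between 850 and 1369, include the 2 largest of all. Another run of 7 held si:ch211-145c1.1, si:dkey-90l23.2, si:dkey-90l23.1, si:ch1073-75o15.4, zgc:171776, si:ch1073-75o15.3 and zgc:153499, at 18.3 to 171 CPM in wild type 2 and 125 to 1314 CPM in runx1 null 6. A run of 6 joined 4 genes of the clone family si:dkeyp-98a7 with a gene of each of 2 other clones. Between 8.58% and 10.3% of reads per library aligned to more than 1 place and were not counted, so levels of genes in these runs are uncertain where copies are near-identical.

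Genes that bind and store RNA formed a group of 12 among the genes of known role. CPEB1, which binds stored messages and controls the length of their poly(A) tails, stood at 0.223, 154 and 0.253 CPM in wild type 1, 2 and 3 and at 0.626 and 967 CPM in the null pools 5 and 6. patl2, an oocyte RNA-binding protein that keeps messages untranslated, stood at 0.0956, 115 and 0.109 CPM in wild type and at 0.0659 and 752 CPM in the null pools 5 and 6. PABPC1L, the poly(A)-binding protein of oocytes and early embryos, stood at 0.0638, 66.9 and 0.0724 CPM in wild type and at 0.0659 and 541 CPM in the null pools 5 and 6. All 3 genes were high in wild type 2 and runx1 null 6, and in the other 3 libraries patl2 and PABPC1L had at most 3 counts and CPEB1 had 7 to 19. ZAR1L, which belongs to a family of maternal mRNA-binding proteins, larp6b, caprin2, cth1 of the ZFP36 zinc finger family, LIN28A, pabpn1l and slbp2, the oocyte form of the protein that binds the stem-loop of histone messages, were likewise highest in runx1 null 6 and next in wild type 2. In the lower of the 2 libraries, wild type 2, these 7 genes ranged from 11.2 CPM for LIN28A (ENSDARG00000016999) to 172 CPM for caprin2.

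Storage of ribosomal 5S RNA was represented as well. GTF3A (ENSDARG00000071583) encodes the transcription factor of 5S RNA genes, which in Xenopus oocytes also holds 5S RNA in storage particles. It stood at 0.0638, 131 and 0.145 CPM in wild type 1, 2 and 3 and at 0.165 and 755 CPM in the null pools 5 and 6. 42sp43, named after a Xenopus protein of such a storage particle, stood at 0.0319, 53.7 and 0 CPM in wild type and at 0.0988 and 380 CPM in the null pools 5 and 6.

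Germ plasm and egg polarity genes came next. ca15b, whose message lies in zebrafish germ plasm, stood at 0.223, 94.1 and 0 CPM in wild type 1, 2 and 3 and at 0.198 and 581 CPM in the null pools 5 and 6. The Tudor domain gene tdrd6b, the gene buc2l and sybu, whose product links vesicles to kinesin and moves determinants in the zebrafish egg, were each at or under 0.857 CPM in the other 3 libraries. In wild type 2 they stood at 23.4, 112 and 46.5 CPM, and in runx1 null 6 at 135, 696 and 305 CPM.

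Cell cycle genes among the 200 included germ cell and egg forms. CCNA1, the cyclin A of germ cells, stood at 0.351, 111 and 0.29 CPM in wild type 1, 2 and 3 and at 0.231 and 741 CPM in the null pools 5 and 6. fbxo43, an inhibitor of the anaphase-promoting complex that holds vertebrate eggs in the second meiotic division, stood at 0.223, 13.2 and 0.0724 CPM in wild type and at 0.0659 and 115 CPM in the null pools 5 and 6. Also among the 200 were CCNB2, ccnp, birc5b, cdca9, the replication helicase genes mcm3l and MCM6 (ENSDARG00000033231), fmn2b, whose mouse relative positions the meiotic spindle, and the nuclear import gene kpna7. Of a list of 44 cell cycle gene names, which matched 45 IDs, 4 IDs were among the 200. Over all IDs above 1 CPM in some library the share of the 200 was 1.03%. In 18 of the 45, both libraries were at least 4-fold above the other 3, a pattern of 3.12% of IDs above 1 CPM.

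Transcription and chromatin genes included regulators that the early embryo receives from the egg. nanog, which helps to switch on the zebrafish embryonic genome, stood at 0.542, 71.2 and 0.181 CPM in wild type 1, 2 and 3 and at 0.132 and 466 CPM in the null pools 5 and 6. LHX8, a LIM homeobox factor needed for oocyte differentiation in the mouse, stood at 0.128, 7.22 and 0.0724 CPM in wild type and at 0.0659 and 53.7 CPM in the null pools 5 and 6. Runx1 null 6 and then wild type 2 were also the highest libraries for TBPL2, a relative of the TATA-binding protein that serves mouse oocytes, for the homeobox genes OTX1 and DLX6, for SALL4 and foxa, and for npm2b, a nucleoplasmin that stores and exchanges histones. These 6 genes ranged from 5.57 CPM for DLX6 to 31.6 CPM for npm2b in wild type 2.

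Egg coat, receptor and secreted proteins reached the highest read shares among genes with a role. zpax1, a zona pellucida domain gene of the egg coat that the exclusions do not cover, stood at 1.98, 543 and 2.64 CPM in wild type 1, 2 and 3 and at 1.35 and 4243 CPM in the null pools 5 and 6. zpax4 stood at 0.383, 458 and 0.326 CPM in wild type and at 3.69 and 3503 CPM in the null pools 5 and 6. With zpax2 the zpax family had 3 genes among the 200, and zpcx of the same domain class was a further one. lrp13, a lipoprotein receptor family gene of fish ovary, reached 191 CPM in wild type 2 and 1359 CPM in runx1 null 6. gdf3, which encodes the maternal signal Vg1 in zebrafish, stood at 0.191, 61.0 and 0.253 CPM in wild type 1, 2 and 3 and at 0.165 and 442 CPM in the null pools 5 and 6. The chitinase gene chia.4, the biotin-binding avidin gene avd and the serine protease gene ovch1 completed the group, at 194, 21.0 and 31.0 CPM in wild type 2.

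Metabolic and sugar-transfer enzymes made up the last group. retsatl, related to retinol saturase, stood at 0.319, 343 and 0.326 CPM in wild type 1, 2 and 3 and at 0.593 and 2297 CPM in the null pools 5 and 6. Of the dihydropteridine reductase genes, QDPR (ENSDARG00000086859), qdprb.3 and qdprb.4 were among the 200, at 124, 34.9 and 31.5 CPM in wild type 2. The sialyltransferase genes st3gal1, st6gal1 and st8sia7.1 and the transferases gbgt1l4 and b4galnt2.2 ranged from 8.42 to 63.1 CPM in wild type 2. Each of these genes stood under 1 CPM in the other 3 libraries.

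**Figure D2:**
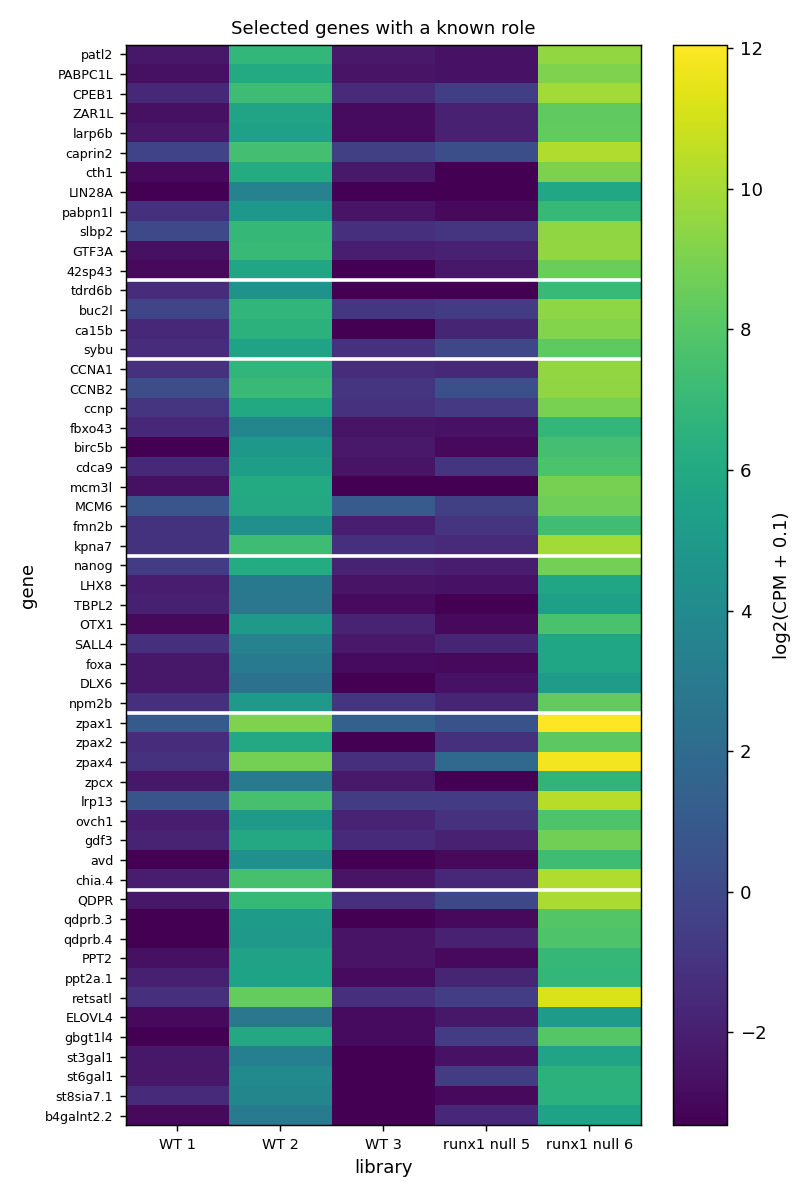
Rows are the 55 genes with a known role and columns the 5 libraries, and colour gives log2(CPM + 0.1), with white lines between RNA storage, germ plasm, cell cycle, transcription, egg coat and enzyme genes from top to bottom. Wild type 2 and runx1 null 6 are bright in each row and the other 3 columns are dark, by the rule, and zpax1 at 4243 CPM in runx1 null 6 is the brightest cell.

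Several of the 200 genes have a close relative that was read in all 5 libraries. These 14 pairs were set side by side after their values had been seen. The other GTF3A ID, ENSDARG00000030267, stood at 17.8, 13.9 and 18.1 CPM in wild type 1, 2 and 3 and at 13.6 and 44.8 CPM in the null pools 5 and 6. Wild type 2 lay within the other libraries for that copy, and far above them for the copy among the 200. MCM3, the relative of mcm3l, stood at 15.3, 5.50 and 1.70 CPM in wild type and at 9.22 and 4.86 CPM in the null pools 5 and 6. The second MCM6 ID, ENSDARG00000057683, stood at 24.9, 8.02 and 2.75 CPM in wild type and at 15.2 and 7.32 CPM in the null pools 5 and 6. For both helicase relatives the highest level was in wild type 1, a library where mcm3l stood at 0.0638 CPM. PABPC1L had its counterpart in pabpc1a, the general poly(A)-binding protein, which stood between 827 and 1440 CPM in the 5 libraries with its lowest level in runx1 null 6. CCNA2, the cyclin A of dividing body cells, stood at 11.7, 101 and 2.28 CPM in wild type and at 9.19 and 556 CPM in the null pools 5 and 6. It followed wild type 2 and runx1 null 6 as well, from a higher base than CCNA1. The same held for slbp, BIRC5, LARP6, TDRD6 and TBP, each beside its own relative.

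**Figure D3:**
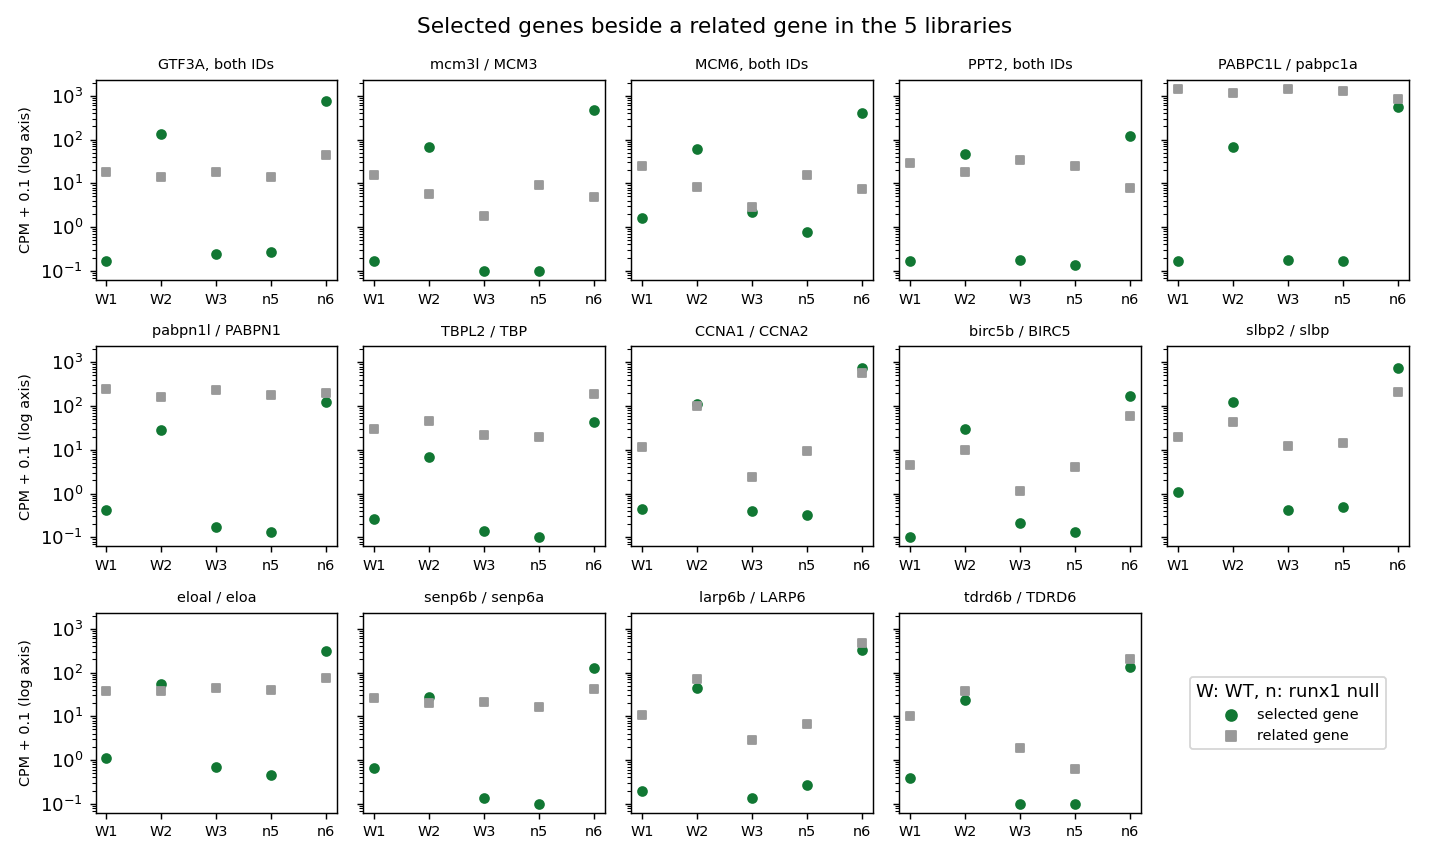
Each panel shows 1 of the 200 genes (green circles) and a related gene (grey squares) in wild type 1, 2 and 3 (W1 to W3) and runx1 null 5 and 6 (n5, n6), on a log axis of CPM + 0.1. Green points are high in W2 and n6. Grey points vary by pair: pabpc1a, at 827 to 1440 CPM, changes much less between libraries, while CCNA2, at 2.28 to 556 CPM, is also highest in W2 and n6.

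The 200 genes kept nearly the same proportions to each other in wild type 2 and runx1 null 6. The ratio between these libraries did not enter the rule, but the lower of both levels did. The relation is therefore a description of the chosen genes and no independent support. Runx1 null 6 was higher for 198 of the 200 genes, with a median ratio of runx1 null 6 to wild type 2 of 6.68 and an interquartile range of 5.79 to 7.64. It was at least 2-fold higher for 197 of the 200, 98.5%, where 32.8% of all 10358 ranked genes were. Of the next 200 genes of the ranking, 198 were as well, so the pattern was not limited to the 200. Nothing is read from the contrast with all ranked genes, since the same levels set the ranking. The median ratio of the other 10158 ranked genes was 1.28, that of the next 200 was 5.87 and that of the 26 left-out oocyte genes was 6.54. The left-out genes were named with earlier results of these data known, so the nearness of their median is no independent check. Between 4-fold and 10-fold lay 180 of the 200 genes, with 9 below and 11 above. Pearson's r of log2 CPM between the libraries across the 200 genes was 0.968, as a description, since each gene has the same length in both and both libraries had to pass 5 CPM. With 1 library of each genotype the difference has no replicate check, and genotype and the amount of oocyte RNA in a pool cannot be told apart.

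The roles differed little in this ratio. The medians were 6.41 for 12 RNA storage genes, 6.19 for 4 germ plasm genes, 6.54 for 10 cell cycle genes, 6.59 for 8 transcription genes and 7.31 for 9 egg coat and secreted genes. The 12 enzyme genes had a median of 5.75. The 145 genes with no role given had a median of 6.86, and the next 200 genes of the ranking had a median of 5.87.

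A few genes left the common ratio. The highest values were 13.9 for zpcx, 12.9 for si:dkey-172k15.17, 12.7 for si:dkeyp-98a7.8, 11.9 for lectin and 11.3 for si:dkey-172k15.18. zpcx reached 7.66 CPM in wild type 2 and 106 CPM in runx1 null 6. The lowest values were 0.558 for si:ch73-160p18.4, 0.965 for slc12a10.3, 1.86 for ENSDARG00000109703, 2.41 for ppt2a.1 and 2.60 for PPT2 (ENSDARG00000093176). si:ch73-160p18.4 reached 34.7 CPM in wild type 2 and 19.4 CPM in runx1 null 6, although si:ch73-160p18.3 of the same clone family stood at 389 and 3199 CPM. slc12a10.3, of the cation-chloride cotransporter family, stood at 10.8 and 10.5 CPM. Only these genes, si:ch73-160p18.4 and slc12a10.3, were lower in runx1 null 6 than in wild type 2. Both palmitoyl-protein thioesterase genes among the 200 were below 3-fold, at 46.0 and 120 CPM for PPT2 and 47.5 and 115 CPM for ppt2a.1 in wild type 2 and runx1 null 6.

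**Figure D4:**
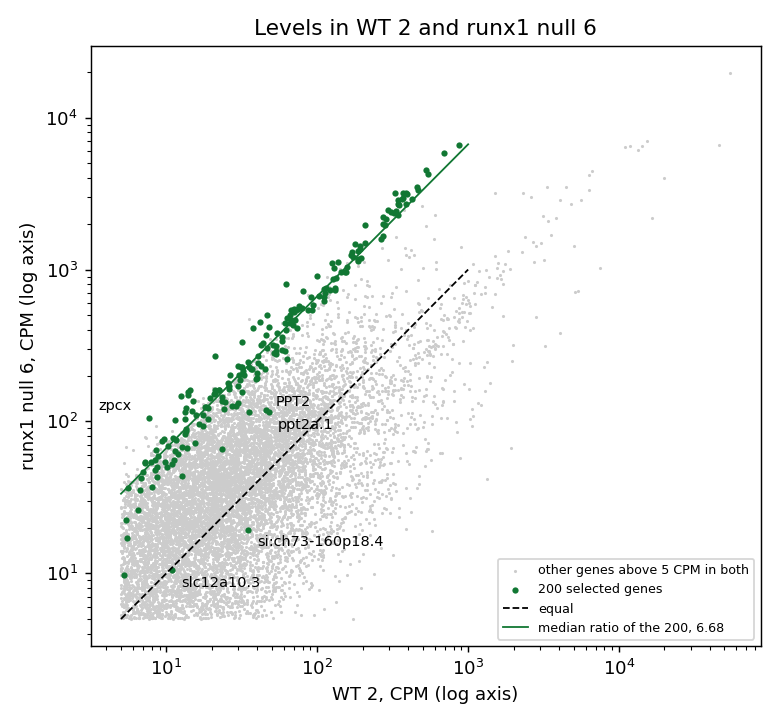
Each point is a gene above 5 CPM in both wild type 2 (horizontal, CPM) and runx1 null 6 (vertical, CPM), on log axes, with the 200 genes in green and other ranked genes in grey. The green points follow a line at the median ratio of 6.68, and si:ch73-160p18.4 and slc12a10.3 lie under or near the dashed line of equal levels.

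Germ plasm, piRNA and meiosis genes were also followed as lists, to be read against the 200 genes' share of 1.03% among the 19353 IDs above 1 CPM in some library. A list of germ plasm and piRNA pathway genes matched 26 IDs, of which 1, ca15b, was among the 200. In 12 of the 26, wild type 2 and runx1 null 6 were at least 4-fold above the other 3 libraries, a pattern of 3.12% of IDs above 1 CPM. DDX4, the germ cell RNA helicase Vasa, stood at 4.72, 18.8 and 0.217 CPM in wild type 1, 2 and 3 and at 0.165 and 132 CPM in the null pools 5 and 6. PIWIL1, which binds piRNAs, stood at 12.8, 15.6 and 0.724 CPM in wild type and at 0.362 and 114 CPM in the null pools 5 and 6. For both genes wild type 1 lay above wild type 3 and runx1 null 5, which lowered their ratios to 3.90 and 1.21. Of 24 meiotic chromosome genes 0 were among the 200, a count from which nothing is read at that share. Of the 20 above 1 CPM in some library, 9 were highest in wild type 1 and 8 in runx1 null 6. The summed level of the list was 160 CPM in wild type 1 and 263 CPM in runx1 null 6. SYCP1, a protein between paired meiotic chromosomes, stood at 22.8, 8.65 and 7.56 CPM in wild type 1, 2 and 3 and at 4.48 and 71.1 CPM in the null pools 5 and 6. SYCP3, a lateral element protein of meiotic chromosomes, stood at 3.95, 0.232 and 0.832 CPM in wild type 1, 2 and 3 and at 0.231 and 0.474 CPM in the null pools 5 and 6. insl3, a hormone of Leydig cells, stood at 2.14 CPM in wild type 1 and at or under 0.0362 CPM in the other 4 libraries. The summed level of 11 testis IDs was 17.7, 11.003 and 5.21 CPM in wild type 1, 2 and 3 and 17.7 and 31.7 CPM in the null pools 5 and 6, so the testis list as a whole was not highest in wild type 1. Of the 9 testis IDs above 1 CPM in some library, 2 were highest in wild type 1, insl3 and DMRT1, and 3 were highest in runx1 null 6. DMRT1 stood at 4.69, 0.994 and 2.10 CPM in wild type 1, 2 and 3 and at 2.08 and 1.66 CPM in the null pools 5 and 6. The part of testis cells in the levels of wild type 1 was not tested.

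**Figure D5:**
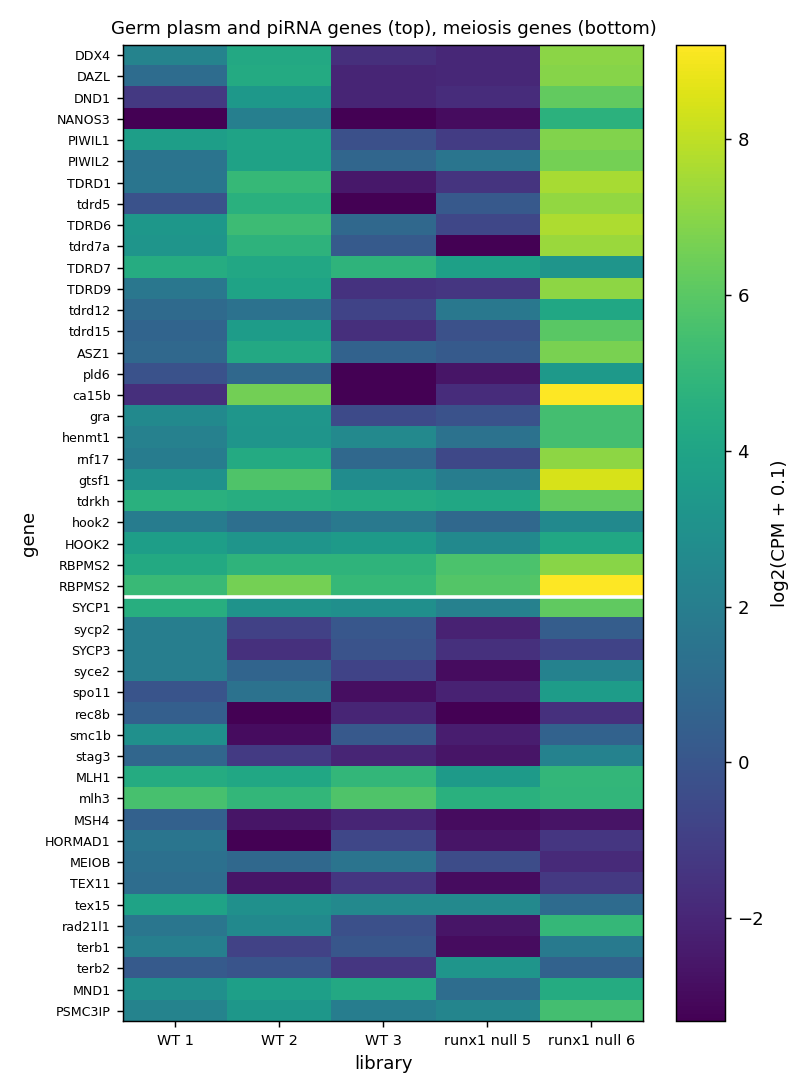
Rows are genes of the germ plasm and piRNA list (above the white line) and of the meiosis list (below it) that pass 1 CPM in some library, columns are the 5 libraries, and colour gives log2(CPM + 0.1). ca15b is dark in wild type 1 at 0.223 CPM, whereas PIWIL1 is brighter there at 12.8 CPM and SYCP3 is highest there at 3.95 CPM.

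Other fixed lists placed the 200 genes among the tissues of the pools. Of 15 oocyte transcription and chromatin IDs 4 were among the 200, of 18 maternal-effect IDs 5, and of 25 RNA translation IDs 5, where the 200 are 1.03% of IDs above 1 CPM. These lists, too, were chosen with earlier results known. No gene of the follicle, testis, red cell, nephron, liver, interrenal or pancreas, muscle and gut lists was among them, and lists of 7 to 18 IDs are too short for a count of 0 to differ from that share. Markers of other tissues also differed between wild type 2 and runx1 null 6. The summed level of 8 red cell IDs was 29784 CPM in wild type 2 and 5598 CPM in runx1 null 6, against 37316, 55887 and 41389 CPM in wild type 1, wild type 3 and runx1 null 5. The liver list stood at 71074 and 29185 CPM in wild type 2 and runx1 null 6, and at 23399, 1242 and 37277 CPM in the others. Most of each liver sum was the single gene vtg1. It stood at 54470 and 19631 CPM in wild type 2 and runx1 null 6. In wild type 1, wild type 3 and runx1 null 5 it stood at 18239, 903 and 29497 CPM. The part of the red cell and liver genes in the CPM ratio between wild type 2 and runx1 null 6 was not tested. Of 9 steroid synthesis IDs, 2 had both libraries at least 4-fold above the rest, a pattern of 3.12% of IDs above 1 CPM. CYP17A1 stood at 1.28, 15.01 and 0.253 CPM in wild type and at 0.362 and 116 CPM in the null pools 5 and 6. CYP11A1 (ENSDARG00000002347) stood at 6.34, 27.6 and 0 CPM in wild type and at 3.43 and 183 CPM in the null pools. Their ratios, 10.9 and 4.28, lay below the lowest of the 200 genes, 24.8. The other 7 IDs were highest in wild type 1, among them STAR at 1474 CPM.

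The genotype comparison of the design asks which genes differ between runx1 null and wild-type kidneys, and no gene among the 200 passed it. All 200 were tested, since each passed the filter on low counts through wild type 2 and runx1 null 6. In edgeR's quasi-likelihood test with Benjamini-Hochberg adjustment over 20386 genes, 0 of the 200 passed an adjusted p-value of 0.05, and 0 of all genes did, 0%. At an unadjusted p under 0.05 there were 0 of the 200 and 890 of all genes, 4.37%, of which 644 were higher in the null group, 3.16%. In the DESeq2 Wald test 41 of the 200 received an adjusted p-value and 0 of these passed, against 73 of 21282 genes, 0.343%, of which 24 were higher in the null group, 0.113%. At an unadjusted p under 0.05 the DESeq2 test had 1 of these 41, si:dkey-241l7.3, against 2207 of the 21282 genes. The median log2 fold change of the 200 genes, null over wild type, was 3.18, and the median over all tested genes was 0.24. The rule favours this direction, because 1 of 2 null libraries but only 1 of 3 wild-type libraries was high. It does not set the size, which also holds the ratio of runx1 null 6 to wild type 2, with a median of 6.68. At a ratio of 0.965, slc12a10.3 had a log2 fold change of 0.359. By the same rule the groups overlap for each of the 200 genes, which widens the spread within each genotype and keeps p-values large. The counts of 0 among the 200 thus follow from the choice of genes, and nothing is read from them. The smallest p-value among them belonged to si:dkey-241l7.3, with 5, 420 and 7 counts for wild type 1, 2 and 3 and 14 and 5243 for the null pools 5 and 6. In edgeR its log2 fold change was 3.89 (SE 2.57), at an adjusted p-value of 0.612.

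Each genotype value rested on the 2 libraries that chose the genes. Without runx1 null 6 the median log2 fold change of the 200 genes was -7.04. Without wild type 2 it was 9.58 over the 66 genes that still passed the filter, which were high in runx1 null 6 and low in the rest by the rule. All 66 then had an unadjusted p under 0.05, where 1583 of all 19702 tested genes did. The rule chose the 200 genes, and the filter on low counts then kept the 66. These had enough counts in runx1 null 6 and in another of the remaining libraries. The median of 9.58 thus covers genes with more counts there, and nothing is read from their count. In neither case did a gene pass an adjusted p-value of 0.05 in edgeR. For si:dkey-241l7.3 the log2 fold change was -3.49 without runx1 null 6 and 8.58 without wild type 2. In wild type 1, wild type 3 and runx1 null 5 alone, the 200 genes summed to 50.5, 43.9 and 59.4 CPM.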

How the data were processed

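The authors deposited 1 table per library of raw read counts per Ensembl gene, with 5 closing rows that name no gene and were left out. HISAT2 2.2.1.0, HTSeq 0.11.4, DESeq2 and the build GRCz11 are named in the submitters' processing notes, without their roles. The strand setting and annotation release are not given in the sources used here, so counts of overlapping genes are uncertain. Between 60.6% and 71.9% of reads per library were assigned to a gene.

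Symbols came from a table that names 29201 IDs. Symbols to leave out were matched ignoring case, since the table writes ZAR1 and GDF9. Of the 200 genes, 13 share their symbol with another ID and are given by ID where described. Marker names without a match were tried without a final a or b. Gene order came from the RefSeq annotation of GRCz12tu.

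Genes were filtered with filterByExpr (minimum count 10, minimum total 15), scaled with TMM factors between 0.920 and 1.09, and tested with edgeR 4.0.16 (quasi-likelihood, robust, two-sided, adjusted p threshold 0.05). DESeq2 1.42.0, other scalings, no filter, leaving out each library and other constants of the ranking were tried. The fits were also run on simulated counts with a set genotype effect, an equal spread for all genes and no library set apart. These data differ from that setting, so the run does not show how the fits behave on them. Named genes are the 10 largest ratios, genes with many reads, members of marker lists, extremes of the ratio between the 2 libraries, genes next to the end of the list and clone or symbol families. Genes with a known role and pairs of relatives were chosen after their values were seen. The genes and lists were chosen with earlier results of these data known. Scripts ran in R 4.3.3 and in Python 3.11.15, with pandas 2.3.3 for tables and matplotlib 3.10.9 for figures. Sequence motifs were not analysed here.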

Additional observations from a re-analysis of the deposited data

How the results depend on the processing

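The number of genes called between the genotypes over all genes was 0 in edgeR and 73 in the DESeq2 Wald test, and it was 0 under DESeq2 size factors, upper quartile scaling and no filter. Leaving out each library in turn gave counts between 0 and 0. In the DESeq2 Wald test only 41 of the 200 genes had an adjusted p-value, and without wild type 2 only 66 of the 200 were tested. Among the 200 genes the count was 0 in each fit with at least 2 pools per genotype. Their median log2 fold change lay between -7.04 and 9.58 when each library was left out, with a negative value only without runx1 null 6, and that of si:dkey-241l7.3 between -3.49 and 8.58. The list kept 197 of its 200 genes with TMM effective library sizes, 175 with 1 CPM added to the denominator, 193 with a minimum of 1 CPM and 142 with a minimum of 20 CPM. It kept 199 when symbols were left out as spelled in the rule, an alternative chosen after seeing the data. The median ratio of runx1 null 6 to wild type 2 was 6.05 with TMM effective library sizes, 6.81 without genes that share their symbol, 6.56 with 1 CPM added to both, and 6.54 for the left-out oocyte genes. No paired analysis was possible because wild-type and null pools carry different numbers. Depth limits the values of the 3 other libraries, where most of the 200 genes had a few counts.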
